A study of Homo sapiens with 13 samples.

Results

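Histone methylation and polycomb regulators were followed as 49 genes, chosen by name for the complexes and enzyme families they belong to, out of 61541 annotated genes in the count tables. The choice was made with earlier results of these data known. All 49 were found once by name and identifier in both tables, and all 49 passed the filter of a mean of at least 1 CPM (counts scaled to a common library size). They comprise the core and accessory subunits of Polycomb repressive complex 2 (PRC2), the ligases, PCGF proteins, chromobox proteins and polyhomeotic proteins of Polycomb repressive complex 1 (PRC1), and the methyltransferases and demethylases of lysines 4, 9, 27, 36 and 79 of histone H3.

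The cells were RUES2 human embryonic stem cells, an established line, carrying a fusion of GFP to SMAD4, the shared partner of the receptor-activated SMADs, and every library came from this line in mTeSR1 medium. In a time series, cells received 100 ng/mL BMP4 with 5 µM IWP2, which blocks the secretion of Wnt ligands, and were collected at 0 h (2 libraries) and at 4, 12, 20, 28 and 42 h (1 library each). For 0 h as well, the labels give BMP4 and IWP2 as the treatment. In a dose response at 5 h, cells received BMP4 and IWP2 with LDN-193189 at 0, 10, 30, 100 or 300 nM (called LDN here, it inhibits type I BMP receptors), and 1 further library was untreated. Nothing in the labels says that the 0 h libraries came from separate cultures, so their spread may be technical, and at every other time and dose the scatter about a fitted trend is the only estimate of error. Because these are bulk libraries of 1 line, fewer cells that express a gene and less RNA per cell cannot be told apart. No library after 0 h in the time series lacked BMP4 and IWP2, so these and hours in culture cannot be told apart there.

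Polycomb proteins keep developmental genes silent. PRC2 methylates lysine 27 of histone H3 through its catalytic subunit EZH2 or EZH1, and PRC1 ubiquitylates histone H2A through RING1 or RNF2, each paired with a PCGF protein. In canonical PRC1 a chromobox (CBX) protein reads the methyl mark on lysine 27 and a polyhomeotic (PHC) protein joins complexes to each other. KDM6A and KDM6B remove the mark again. Other enzymes write or erase methyl groups at lysine 4 and lysine 36, which accompany transcription, and at lysine 9, which marks silent chromatin. In pluripotent stem cells and their descendants the paralogs within these families are known to replace one another.

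The genes on which the results turn most are PHC1, PHC2 and JARID2. JARID2 is an accessory subunit that brings PRC2 to chromatin. Their promoters, from 250 bases before to 50 bases after the RefSeq gene start on GRCh38.p14, are shown. These genes were called both over time and with LDN dose. PHC1 and JARID2 went opposite ways in these trends and PHC2 rose in both. CBX2, KDM4A and KDM4C were also called in both, and their promoters are not shown. For CBX2 no RefSeq promoter was available. Capitals mark GGCGCC, a GC-rich element that SMAD1 and SMAD5 are known to bind and that reads the same on both strands. PHC1 lies at chr12:8913593-8913892 on the plus strand, JARID2 at chr6:15245819-15246118 on the plus strand and PHC2 at chr1:33431046-33431345 on the minus strand.

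PHC1: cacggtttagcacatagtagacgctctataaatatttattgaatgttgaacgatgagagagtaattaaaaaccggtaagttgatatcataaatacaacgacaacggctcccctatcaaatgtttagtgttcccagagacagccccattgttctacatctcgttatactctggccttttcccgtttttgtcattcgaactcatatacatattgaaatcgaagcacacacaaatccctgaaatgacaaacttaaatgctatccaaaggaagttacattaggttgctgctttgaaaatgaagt

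JARID2: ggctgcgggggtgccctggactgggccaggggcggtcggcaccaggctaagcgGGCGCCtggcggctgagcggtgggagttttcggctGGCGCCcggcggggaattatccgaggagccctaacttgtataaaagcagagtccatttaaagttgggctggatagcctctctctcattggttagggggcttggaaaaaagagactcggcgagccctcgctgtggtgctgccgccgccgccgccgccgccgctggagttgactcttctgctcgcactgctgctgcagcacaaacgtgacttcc

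PHC2: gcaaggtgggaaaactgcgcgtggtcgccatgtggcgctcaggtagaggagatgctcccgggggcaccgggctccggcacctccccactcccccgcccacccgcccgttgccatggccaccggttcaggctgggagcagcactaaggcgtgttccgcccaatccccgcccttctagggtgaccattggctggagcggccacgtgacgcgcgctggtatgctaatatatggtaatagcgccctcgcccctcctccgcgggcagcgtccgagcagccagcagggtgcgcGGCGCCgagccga

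JARID2 held GGCGCC at 197 and at 162 bases before its start, PHC2 held it at 37 bases after its start, and the PHC1 window held none. The windows of KDM6B and BMI1, which were also examined and are not shown, held none either. RefSeq promoters were available for 45 of the 49 genes. GGCGCC occurred in 17 of these 45 (37.8%) and in 5180 of all 27305 promoters of this length (19%). The median GC content was 67% in the 45 promoters and 58.3% in all of them. The PHC1 window was the lowest of the 45 in GC content, at 37%, and it ends just before the start of the gene in GENCODE 44, at position 8913896 of chromosome 12. The letters CAGAC or its reverse complement GTCTG, the short SMAD box, were in none of the windows shown, and were in 20 of the 45 (44.4%) and in 45% of all promoters. These matches describe the sequence only.

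The time-series libraries held 37957385 to 71333471 counts and the 5 h libraries 15600931 to 33989998, so that 3 counts, the floor used for counting error, correspond to 0.0421 to 0.079 CPM and 0.0883 to 0.192 CPM. Mitochondrial genes took 2.01 to 7.6% of the counts in the time series and 4.22 to 7.89% at 5 h. In the time series the first 0 h library had both the fewest counts (37957385) and the highest mitochondrial share (7.6%). The second 0 h library had the most counts (71333471) and a share of 4.29%. The part of this difference in the time trends was not tested. The untreated library had both the fewest counts at 5 h (15600931) and the highest mitochondrial share (7.89%). In the libraries with BMP4 at 5 h these were 28742690 to 33989998 counts and 4.22 to 4.49%. The part of this difference in comparisons with the untreated library was not tested. The summed level of 6 amnion markers rose from 11.8 and 11.9 CPM at 0 h to 5056 CPM at 42 h. That of 6 direct BMP targets was 131 and 151 CPM at 0 h and 1750 CPM at 4 h. The sum of 7 pluripotency genes went from 5882 and 6252 CPM at 0 h to 3540 CPM at 42 h. LIN28A and POU5F1, with 0 h means of 2928 and 1331 CPM, were at 0.711 and 0.993 times these means at 42 h. SOX2, NANOG, PRDM14, TDGF1 and DPPA4 were at 0.0359, 0.00972, 0.00394, 0.0233 and 0.162 times theirs. Primitive streak and endoderm markers had sums of at most 5.49 CPM in any library, and neural markers of at most 1.45 CPM. Single genes of the first set moved in opposite directions. EOMES went from a mean of 0.254 CPM at 0 h to 3.53 CPM at 20 h, and SOX17 from 0.0662 to 1.53 CPM at 28 h. FOXA2 went from 2.99 to 0.0681 CPM at 12 h. The summed level of 8 proliferation genes ranged from 1460 to 1624 CPM in the time series. The 0 h libraries differed in long transcripts. Of 13 members with a transcript of at least 8000 bases, all 13 were lower in the second 0 h library (median log2 ratio -0.40), against 22 of the 36 shorter ones (-0.06), and the same ratio was -0.33 over 1583 long genes of the whole table. Relative to each gene's mean over the series, long genes as a whole drifted from a median of 0.17 in the first 0 h library to -0.22 at 42 h on the log2 scale, with the second 0 h library at -0.15. The long members are PHC3, KMT2A, KMT2B, KMT2C, KMT2D, SETD1B, SETD2, NSD1, NSD2, KDM5A, KDM5B, KDM3A and KDM6A, and the part of this drift in their values was not tested.

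Over 42 h of BMP4 with IWP2 a fitted line found 6 of the 49 genes rising and 10 falling, in edgeR's quasi-likelihood test, with p-values adjusted by Benjamini-Hochberg over all genes (threshold 0.05). The 16 called genes are 32.7% of the list, beside 36.7% of all 15976 genes tested, of which 19.2% rose and 17.5% fell. The list as a whole was thus called about as often as any gene, and its median fitted change was -0.08 beside -0.00 for all genes. The falling genes were PHC1, JARID2, CBX2, KDM4C, KDM4A, SUV39H2, PHC3, NSD1, MTF2 and EZH2. The rising genes were KDM6B, PHC2, CBX8, BMI1, KDM4B and SUV39H1. A second fit that allows a curve called 20 of the 49 (40.8%, beside 47.7% of all genes), 7 of which the line had missed. With library totals in place of TMM scaling, which moves the median of all genes at 42 h by -0.24 on the log2 scale where TMM leaves it at -0.01, the line called 4 rising and 15 falling genes. The count of 16 became 9 without the first 0 h library, 9 without the 4 h library, 10 without the 28 h library and 8 without the 42 h library. The share of all genes called went down with it, to 27.1%, 28.2%, 28.2% and 20.3% in these fits.

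**Figure D1:**
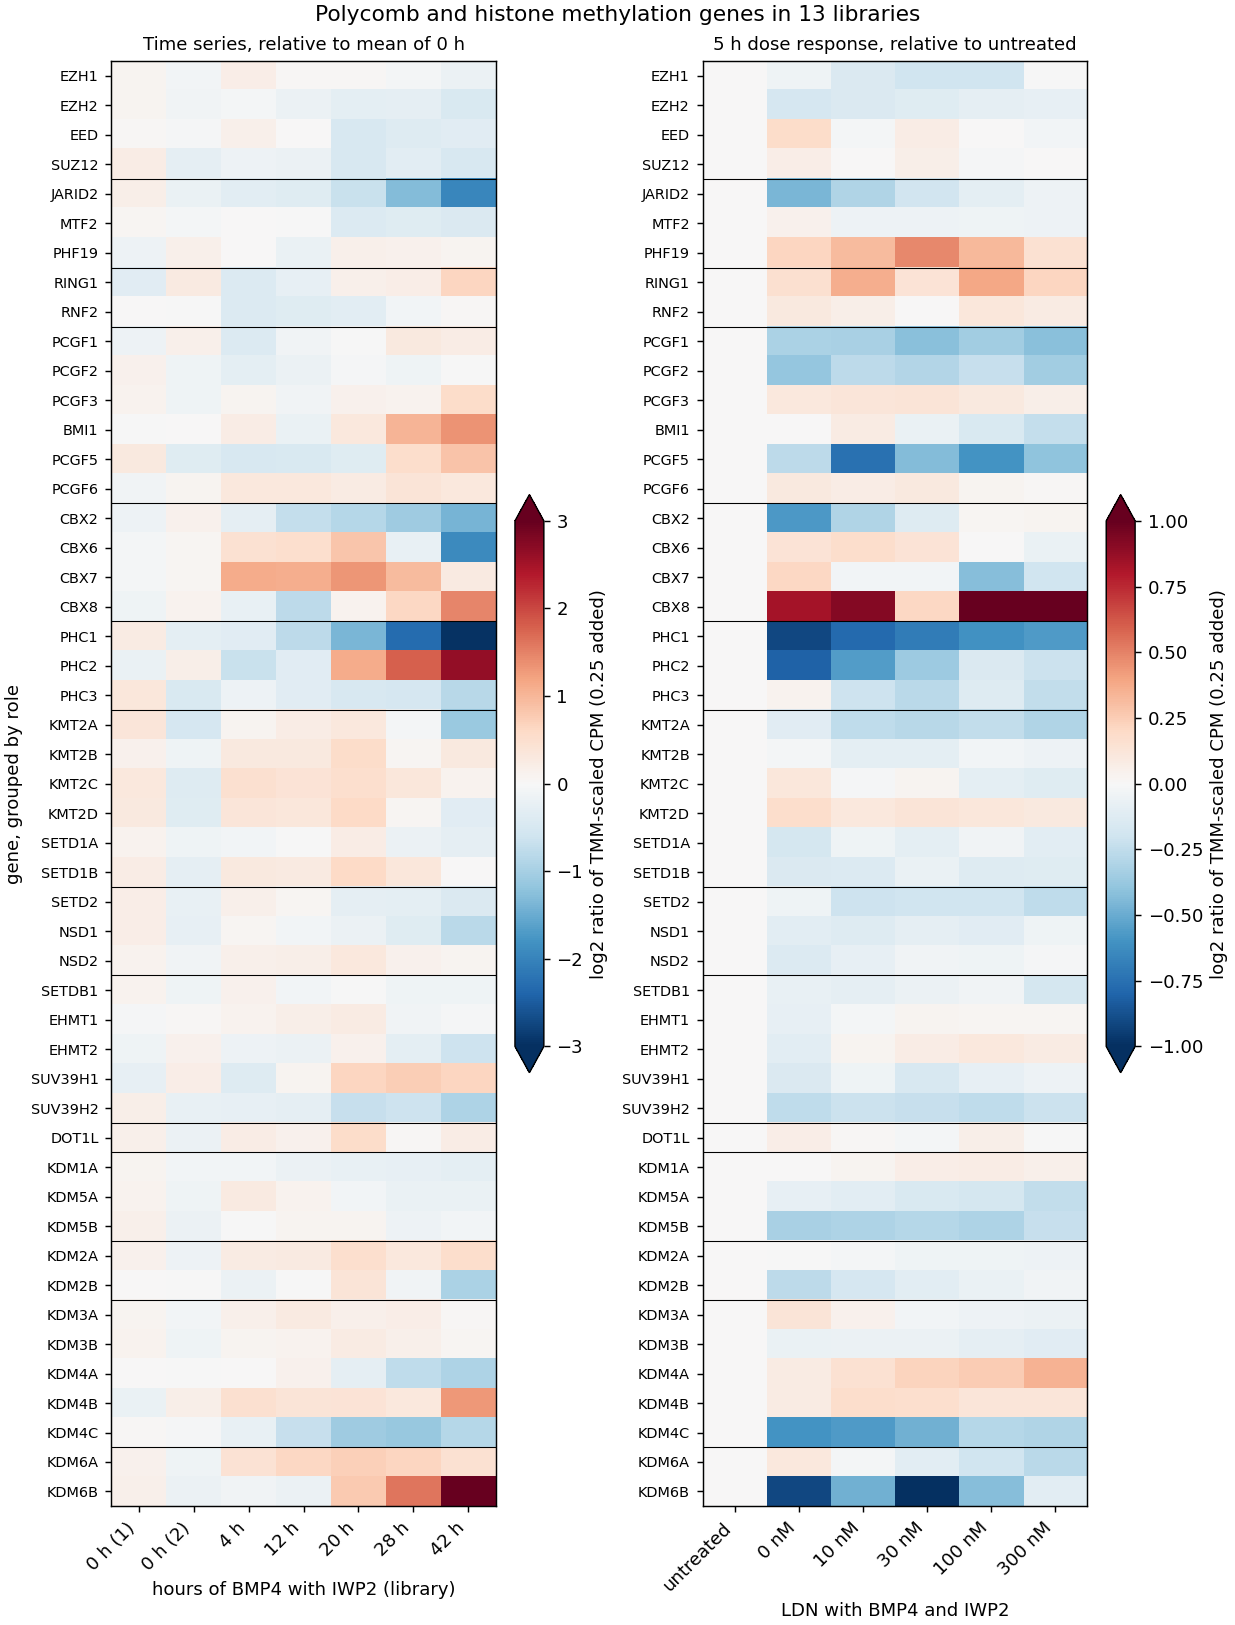
Heat maps of the log2 ratio of TMM-scaled CPM for the 49 genes (rows, grouped by role with lines between groups), in the 7 time-series libraries relative to the mean of the 0 h libraries (left, scale from -3 to 3) and in the 6 libraries at 5 h relative to the untreated one (right, scale from -1 to 1). PHC1 and JARID2 darken to blue with time while PHC2 and KDM6B turn red after 12 h, and most rows of the histone methyltransferases stay pale.

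Among the subunits of PRC2, the catalytic core moved little and the accessory subunit JARID2 moved most. EZH2, the main methyltransferase of proliferating cells, stood at 81.6 and 71.7 CPM at 0 h, 73.1 (4 h), 68.4 (12 h), 62.7 (20 h), 63.1 (28 h) and 56.1 (42 h). Its 42 h level was 0.732 times the 0 h mean, below both 0 h libraries. The fitted change was -0.44 ± 0.14 (SE, log2 over 42 h, adjusted p = 0.0364, edgeR), and the call was lost when any one of the first 0 h, 4 h, 12 h, 28 h or 42 h libraries was left out (adjusted p up to 0.195) and without a filter on low counts (adjusted p = 0.254). EZH1, its paralog in cells that divide less, was at 23.5 and 20.9 CPM at 0 h, 25.6 (4 h), 22.6 (12 h), 22.9 (20 h), 21.2 (28 h) and 19.6 (42 h). Its fitted change of -0.23 ± 0.18 did not pass (adjusted p = 0.343, edgeR), while limma on log2 FPKM gave -0.74 and called it (adjusted p = 0.0251). Per length, EZH2 stayed above EZH1 at a ratio of 3.06 to 3.71 in FPKM in all 7 libraries, so the order of these paralogs was the same throughout.

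EED and SUZ12, the other core subunits, had fitted changes of -0.52 ± 0.22 and -0.47 ± 0.20 and did not pass the test. JARID2 was at 565 and 442 CPM at 0 h, 403 (4 h), 394 (12 h), 319 (20 h), 203 (28 h) and 128 (42 h). Each later library lay below both 0 h libraries, and the decline continued through the last time point. The line gave -1.91 ± 0.23 (adjusted p = 0.000572, edgeR), and the 42 h level was 0.255 times the 0 h mean. MTF2, a Polycomb-like subunit that binds unmethylated CpG islands, fell by less (-0.51, adjusted p = 0.0356, edgeR), a call lost without any one of the first 0 h, 4 h, 12 h, 28 h or 42 h libraries and without a filter on low counts (adjusted p up to 0.192). PHF19, from the same Polycomb-like family, had a fitted change of 0.15 ± 0.20 and did not pass.

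The PRC1 ligases were not called. RING1 had a fitted change of 0.71 ± 0.27 and RNF2 one of 0.09 ± 0.21, and neither passed. Of the 6 PCGF proteins, which decide the kind of PRC1 that forms, BMI1 rose and the other 5 did not pass the line. BMI1, the partner of canonical PRC1 also known as PCGF4, was at 6.09 and 6.14 CPM at 0 h, 7.17 (4 h), 5.30 (12 h), 7.62 (20 h), 12.6 (28 h) and 16.0 (42 h). Its rise came after 20 h, and the fitted change was 1.41 ± 0.28 (adjusted p = 0.00632, edgeR). Without the 42 h library the fitted change was 1.28 and the adjusted p was 0.0727. A readthrough gene that joins BMI1 to its neighbour COMMD3 shares exons with it, and its counts came to 0.503% of those of BMI1 in the time series and 11.3% at 5 h. PCGF2, the other canonical partner, was the most abundant PCGF gene at 0 h in FPKM, at a mean of 58.9 beside 2.29 for BMI1, and had a fitted change of 0.04 ± 0.17. PCGF5, a partner in variant PRC1, was past the threshold in the curved fit only (adjusted p = 0.0319, edgeR). It was at 8.68 and 5.50 CPM at 0 h, 5.05 (4 h), 5.06 (12 h), 5.50 (20 h), 10.3 (28 h) and 13.04 (42 h). On the FPKM scale PCGF5 was at 9.0 and 5.4 at 0 h, 2.96 at 20 h and 5.81 at 42 h, so that it also went up after 20 h per length but ended within the range of the 0 h libraries. PCGF3, also of variant PRC1, passed the curved fit as well (adjusted p = 0.0447, edgeR), and an antisense gene over its exons had 22.1% as many counts.

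Of the 5 paralog pairs compared in FPKM, the polyhomeotic pair PHC1 and PHC2 changed its ratio most. PHC1 was at 890.0 and 616 CPM at 0 h, 596 (4 h), 436 (12 h), 289.6 (20 h), 153 (28 h) and 95.9 (42 h). On TMM-scaled CPM it was lower at each time than at the one before, and every later library lay below both 0 h libraries. The 4 h library was only just below the second of them. By library totals it was above that library (646 against 633 CPM), and also in FPKM (237 against 226). The fitted change was -3.06 ± 0.24 (adjusted p = 0.000103, edgeR), which held without any single library (fitted change -3.25 to -2.90), and the 42 h level was 0.127 times the 0 h mean. PHC2 was at 12.4 and 16.4 CPM at 0 h, 9.03 (4 h), 11.3 (12 h), 31.4 (20 h), 50.3 (28 h) and 90.4 (42 h). It was below both 0 h libraries at 4 and 12 h and above both from 20 h on. The line gave 2.95 ± 0.42 (adjusted p = 0.00132, edgeR), with values of 2.77 to 3.35 when single libraries were left out.

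On the FPKM scale, which allows levels of different genes to be compared, PHC1 exceeded PHC2 by 59.95 and 27.2 times in the 0 h libraries, and the ratio dropped from 31.2 (12 h) through 7.03 (20 h) and 2.15 (28 h) to 0.769 (42 h), with PHC2 at 40.1 FPKM and PHC1 at 30.9 FPKM. PHC1, far ahead of PHC2 at 0 h, was therefore behind it at 42 h. PHC3, the remaining paralog, fell with a fitted change of -0.81 (adjusted p = 0.041, edgeR). Its call held in only 1 of the 7 fits that leave out a library, the fit without the second 0 h library (adjusted p up to 0.185 in the others, with a fitted change of -0.52 without the first 0 h library), and it is among the long genes that differed between the 0 h libraries. PHC1 may share reads with the pseudogene PHC1P1, whose counts came to 18.3% of those of PHC1, and its exons overlap those of M6PR on the opposite strand over 1107 bases. M6PR had 20.3% as many counts as PHC1 over the time series, and the strand used in counting is not given in the sources used here.

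**Figure D2:**
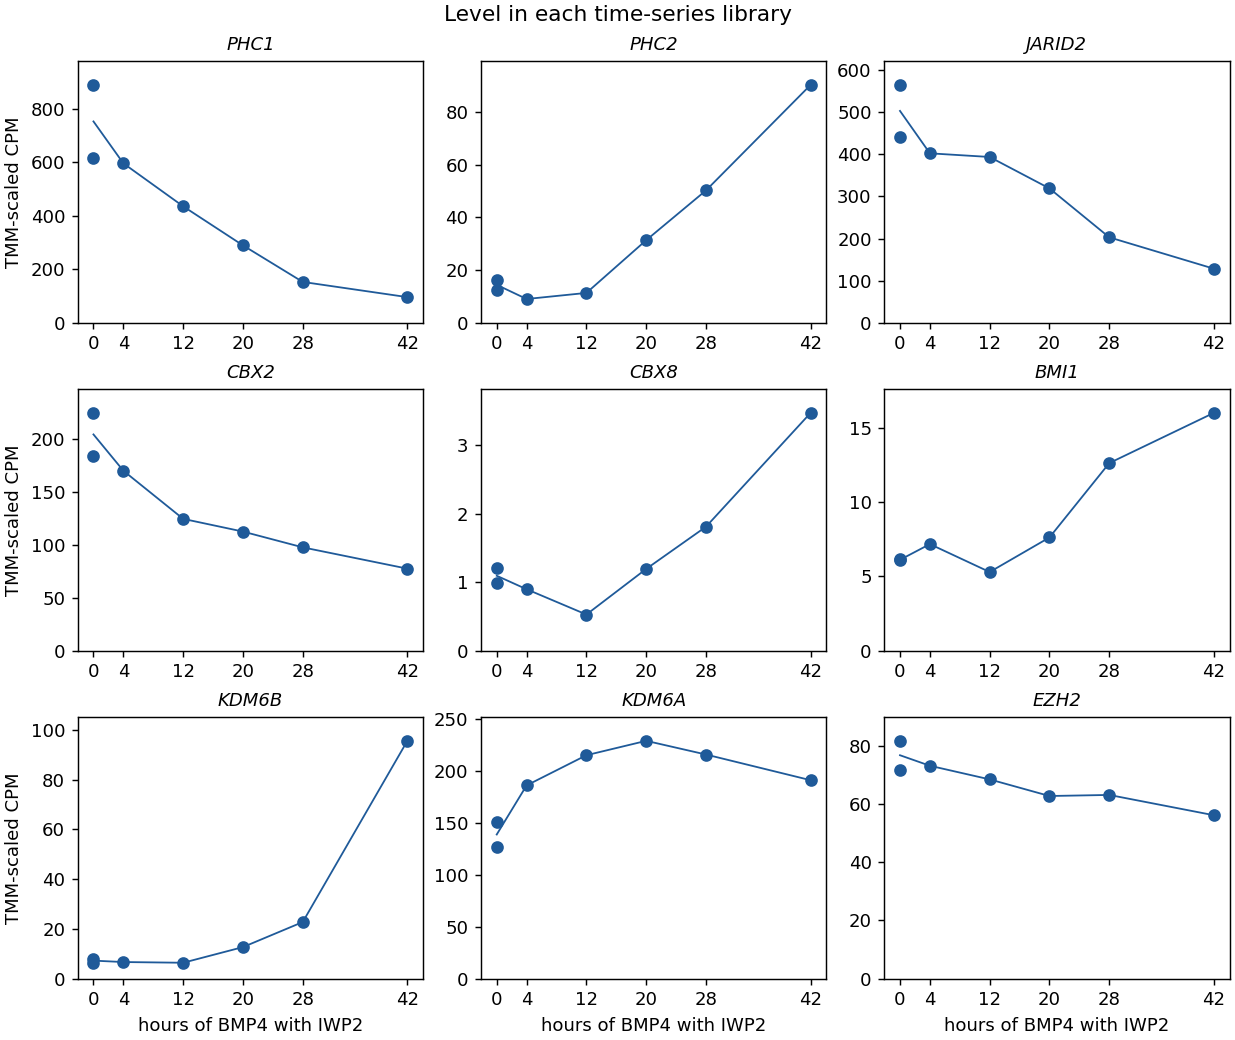
TMM-scaled CPM against hours of BMP4 with IWP2 for 9 genes, each point 1 library and each line through the mean at 0 h (n = 2) and the single later libraries, with axes from 0. PHC1, JARID2 and CBX2 come down from 0 h on, PHC2, CBX8, BMI1 and KDM6B go up mainly after 12 h, KDM6A passes through a maximum of 229 CPM at 20 h, and EZH2 declines slowly.

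The 4 chromobox genes each took a different course. CBX2, the chromobox protein with strong compacting activity, was at 184 and 225 CPM at 0 h, 170 (4 h), 124 (12 h), 112 (20 h), 97.6 (28 h) and 77.5 (42 h). On TMM-scaled CPM it was below both 0 h libraries at every later time, while in FPKM the 4 h library was just above the first (46.22 against 46.11). The fitted change was -1.41 ± 0.19 (adjusted p = 0.00101, edgeR). CBX8 was scarce, with 31 to 184 counts a library. Its level was 0.985 and 1.20 CPM at 0 h, 0.897 (4 h), 0.528 (12 h), 1.19 (20 h), 1.81 (28 h) and 3.47 (42 h). The line gave 1.69 ± 0.48 (adjusted p = 0.0266, edgeR). Leaving out the 42 h library gave 0.97, and the call was lost without any one of the first 0 h, 4 h, 28 h or 42 h libraries (adjusted p up to 0.362) and with limma on log2 FPKM (adjusted p = 0.128). CBX2 and CBX8 are neighbours on chromosome 17, at chr17:79778148-79787983 on the plus strand and chr17:79792132-79801683 on the minus strand of GRCh38, and their fitted changes had opposite signs. In FPKM, CBX2 exceeded CBX8 by 51.8 and 53.3 times at 0 h and by 5.204 times at 42 h, so CBX2 remained the more abundant of the pair.

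CBX7 and CBX6, both on chromosome 22, went up and came back. CBX7, the main chromobox protein of PRC1 in undifferentiated mouse embryonic stem cells, was at 3.81 and 4.18 CPM at 0 h, 8.86 (4 h), 8.75 (12 h), 10.4 (20 h), 7.997 (28 h) and 4.90 (42 h). All later libraries were above both 0 h libraries on TMM-scaled CPM, and only the curved fit called it (adjusted p = 0.0193, edgeR). By library totals the 42 h library was just below the second 0 h library (4.25 against 4.29 CPM). In FPKM it was below both (1.48 against 1.62 and 1.67). CBX6 was at 79.5 and 86.7 CPM at 0 h, 115 (4 h), 118 (12 h), 148 (20 h), 71.6 (28 h) and 22.1 (42 h). It thus peaked at 20 h and ended below both 0 h libraries, at 0.266 times their mean. The curved fit called it (adjusted p = 0.000167, edgeR), while the line gave -1.37 ± 0.79 and did not.

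The demethylases of lysine 27 took different courses over time, and their levels drew closer by 42 h. KDM6B was at 8.09 and 6.46 CPM at 0 h, 6.70 (4 h), 6.42 (12 h), 12.7 (20 h), 22.8 (28 h) and 95.6 (42 h). It stayed near the 0 h libraries to 12 h and was 13.2 times their mean at 42 h, the largest rise among the 49 genes. A fitted change of 3.60 ± 0.43 (adjusted p = 0.000584, edgeR) was found, and it was 2.37 without the 42 h library, still past the threshold. KDM6A, its X-linked paralog, was at 151 and 127 CPM at 0 h, 186 (4 h), 215 (12 h), 229 (20 h), 216 (28 h) and 191 (42 h). All later libraries were above both 0 h libraries, and the curved fit called it (adjusted p = 0.0199, edgeR) where the line, at 0.49 ± 0.28, did not. In FPKM, KDM6A exceeded KDM6B by 24.2 and 20.7 times at 0 h, by 11.8 times at 28 h and by 1.67 times at 42 h.

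Among the enzymes of lysine 9, the KDM4 demethylases, which also act on lysine 36, went different ways. KDM4A was at 126 and 125 CPM at 0 h, 125 (4 h), 137 (12 h), 103 (20 h), 74.1 (28 h) and 65.6 (42 h). Its decline began after 12 h, with a fitted change of -1.02 ± 0.21 (adjusted p = 0.00679, edgeR), which without the 42 h library had an adjusted p of 0.0757. KDM4C was at 27.3 and 26.4 CPM at 0 h, 22.8 (4 h), 16.4 (12 h), 12.7 (20 h), 12.0 (28 h) and 14.8 (42 h). It was below both 0 h libraries at every later time and levelled off after 20 h. The line gave -1.04 ± 0.29 (adjusted p = 0.0255, edgeR), it was -1.86 without the 42 h library, and the call was lost without either 0 h library, the 4 h library or the 28 h library (adjusted p up to 0.0718). KDM4B was at 66.5 and 85.4 CPM at 0 h, 106 (4 h), 99.6 (12 h), 101 (20 h), 95.3 (28 h) and 189 (42 h). All later libraries were above both 0 h libraries. The fitted change was 1.001 ± 0.26 (adjusted p = 0.0182, edgeR), but it was 0.42 with an adjusted p of 0.424 without the 42 h library, and the call was also lost without the first 0 h library, with library totals (adjusted p = 0.0569) and with limma on log2 FPKM (adjusted p = 0.0852). KDM3A and KDM3B, which remove lighter methylation, stayed within 1.29 times between their lowest and highest library.

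The writers of trimethylation at lysine 9, SUV39H1 and SUV39H2, converged. SUV39H2 was at 49.6 and 37.5 CPM at 0 h, 36.4 (4 h), 35.98 (12 h), 26.9 (20 h), 28.1 (28 h) and 23.0 (42 h). On TMM-scaled CPM it was below both 0 h libraries at every later time, although the 4 h library was only just below the second of them. By library totals the 4 h library was above that one (39.4 against 38.5 CPM). The fitted change was -0.91 ± 0.20 (adjusted p = 0.00928, edgeR). Without the first 0 h library it was -0.75, only just past the threshold. DCLRE1C overlaps its exons on the opposite strand over 159 bases and had 49.5% as many counts in the time series. SUV39H1 was at 22.0 and 30.1 CPM at 0 h, 20.0 (4 h), 27.5 (12 h), 40.9 (20 h), 43.8 (28 h) and 41.1 (42 h). From 20 h on it was above both 0 h libraries, and the fitted change was 0.97 ± 0.29 (adjusted p = 0.0306, edgeR). That call was lost without any one of the first 0 h, 4 h, 12 h or 28 h libraries (adjusted p up to 0.0902), with library totals (adjusted p = 0.0761) and with limma on log2 FPKM (adjusted p = 0.0792). In FPKM the ratio of SUV39H2 to SUV39H1 was 3.59 and 2.20 at 0 h and 1.02 at 42 h. SETDB1, EHMT1 and EHMT2, the other methyltransferases of lysine 9, had fitted changes of -0.17 ± 0.15, -0.08 ± 0.18 and -0.48 ± 0.22 and did not pass. CERS2 overlaps the exons of SETDB1 on the opposite strand over 948 bases and had 319.5% as many counts in the time series.

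The 6 methyltransferases of lysine 4 did not pass the line. Their fitted changes ran from -0.78 for KMT2A to 0.20 for KMT2B. KMT2A passed the curved fit (adjusted p = 0.0176, edgeR). It was at 321 and 176 CPM at 0 h, 261 (4 h), 288 (12 h), 310 (20 h), 239 (28 h) and 114 (42 h). Its 0 h libraries were farther apart than those of any other of the 49 genes, and the 42 h library was below both. Of the lysine 36 methyltransferases, NSD1 fell (-0.77, adjusted p = 0.0201, edgeR), a call lost without the first 0 h, 4 h or 42 h library (adjusted p up to 0.236), while SETD2 (-0.52 ± 0.19) and NSD2 (0.08 ± 0.18) did not pass. DOT1L, the lysine 79 enzyme, had a fitted change of 0.18 ± 0.24. PLEKHJ1 overlaps its exons on the opposite strand over 529 bases and had 54.7% as many counts in the time series. The lysine 4 demethylases KDM1A, KDM5A and KDM5B had fitted changes of -0.29 ± 0.14, -0.34 ± 0.18 and -0.11 ± 0.17 and did not pass. KDM2B, a lysine 36 demethylase that carries variant PRC1 to CpG islands, passed the curved fit (adjusted p = 0.0142, edgeR). It was at 220 and 214 CPM at 0 h, 194 (4 h), 216 (12 h), 285 (20 h), 201 (28 h) and 113 (42 h). On TMM-scaled CPM, 6 genes (CBX2, JARID2, KDM1A, KDM4C, PHC1 and SUV39H2) were below both 0 h libraries at every later time, beside 14.1% of all genes tested. Above both were 5 (CBX7, KDM2A, KDM4B, KDM6A and PCGF6), beside 14.8%. These lists depend on the scaling. By library totals, KDM1A, PHC1 and SUV39H2 were above the second 0 h library at 4 h, and CBX7 and PCGF6 were below it at 42 h. In FPKM at 4 h, CBX2 was above the first 0 h library, KDM1A and PHC1 above the second, and KDM2A below the first. In all, 17 of the 49 genes had their highest mean level at 20 h, beside 12.3% of all genes tested, and 20 had their lowest at 42 h, beside 33.2%. The 0 h level here is a mean of 2 libraries. For KMT2A (321 CPM) and KDM5B (315 CPM) the first 0 h library was above the 20 h library (310 and 301 CPM). These levels were not tested against other genes.

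At 5 h the dose of LDN asks which genes followed the strength of BMP signaling. The summed level of the BMP targets fell from 1964 CPM at 0 nM to 648 CPM at 300 nM LDN, with 173 CPM in the untreated library, and that of the amnion markers from 235 to 12.2 CPM, so the doses graded the response. A line over the 5 libraries with BMP4, fitted on dose step, called 8 of the 49 genes as rising with LDN and 5 as falling (26.5%), beside 21.3% of all 14907 genes tested, of which 10.4% rose and 10.9% fell. The genes that rose were PHC2, CBX2, JARID2, KDM4C, PHC1, KDM4A, KDM2B and EHMT2, and those that fell were KDM6A, CBX6, KMT2C, SETD2 and KDM5A. Fitted changes are on the log2 scale from 0 to 300 nM, and most were small beside those over time. The untreated library, which lacked IWP2 as well as BMP4, is given as a value and was not part of the fit. With it added as a sixth step the count was 6, all rising, and KDM4A, EHMT2 and the 5 genes that had fallen were no longer called. With limma on log2 FPKM the count was also 6, and PHC2, KDM4C, KDM2B, EHMT2, CBX6, SETD2 and KDM5A were the genes lost (adjusted p 0.0563 to 0.3355).

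PHC1, JARID2 and CBX2 rose with the inhibitor under every alternative run. PHC1 was at 508 CPM (0 nM), 556 (10 nM), 589.9 (30 nM), 629 (100 nM) and 645 (300 nM) LDN, with 955 in the untreated library. It was higher at each dose than at the one before, and even the highest dose left it well below the untreated library. Over the doses the fitted change was 0.35 ± 0.04 (adjusted p = 4.1e-05, edgeR). JARID2 was at 449, 501, 540.4, 576 and 596 CPM over the same doses, with 617 in the untreated library. The step up was again seen at each dose, and 300 nM came close to the untreated level, with a fitted change of 0.41 ± 0.04 (adjusted p = 1.96e-05, edgeR). CBX2 was at 121, 147, 165, 183 and 184 CPM, with 180.4 untreated. Its fitted change was 0.61 ± 0.07 (adjusted p = 4.5e-05, edgeR), and the untreated level was reached between 30 and 100 nM.

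PHC2 was at 6.61 CPM (0 nM), 7.93 (10 nM), 9.08 (30 nM), 10.6 (100 nM) and 10.1 (300 nM) LDN, with 11.8 in the untreated library. All doses of LDN gave more than BMP4 with IWP2 at 0 nM and less than no treatment. The fitted change was 0.64 ± 0.14 (adjusted p = 0.00575, edgeR), and without the 0 nM library it was 0.50 with an adjusted p of 0.0928. KDM6B had the largest fitted change, 0.74 ± 0.30, but it did not pass (adjusted p = 0.102, edgeR). Its level was 2.12, 2.94, 1.90, 3.07 and 3.90 CPM with rising dose and 4.22 in the untreated library, on 62 to 130 counts a library. At these counts the order of the doses is uneven.

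Of the lysine 9 and lysine 36 demethylases, KDM4A was at 143, 150.1, 157, 161 and 172 CPM with rising dose and at 135 untreated, so that 0 nM was already above the untreated library. Its fitted change was 0.25 ± 0.04 (adjusted p = 0.000786, edgeR), which became 0.04 with an adjusted p of 0.8405 with the untreated library as a sixth step. KDM4C was at 20.0, 20.5, 21.7, 24.9 and 24.7 CPM, with 30.4 untreated, and had a fitted change of 0.36 ± 0.09 (adjusted p = 0.0108, edgeR). KDM2B was at 146, 156, 162, 167 and 170.2 CPM, with 175 untreated, and had a fitted change of 0.22 ± 0.04 (adjusted p = 0.00293, edgeR). RNF34 overlaps the exons of KDM2B on the opposite strand and had 30.9% as many counts at 5 h. EHMT2, which dimethylates lysine 9, was at 221, 243, 251, 257 and 252 CPM, with 239 untreated. Its fitted change of 0.18 ± 0.05 (adjusted p = 0.025, edgeR) became 0.07 without the 0 nM library, and the call was lost without the 0 nM or the 100 nM library (adjusted p up to 0.353).

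KDM6A was the clearest gene to fall with the inhibitor. It was at 175 CPM (0 nM), 160.5 (10 nM), 152 (30 nM), 142 (100 nM) and 135 (300 nM) LDN, with 163 in the untreated library. Each dose gave less than the one before, and the untreated level lay within the range of the doses. Over the doses the fitted change was -0.37 ± 0.04 (adjusted p = 4e-05, edgeR), and it was -0.15 with an adjusted p of 0.323 with the untreated library as a sixth step. CBX6 was at 53.6, 55.0, 53.4, 48.8 and 46.4 CPM, with 48.7 untreated, and its fitted change of -0.23 ± 0.06 (adjusted p = 0.0192, edgeR) was lost without the 10, 100 or 300 nM library (adjusted p up to 0.227). KMT2C was at 81.0, 74.0, 76.2, 69.9 and 68.7 CPM, with 74.8 untreated. Its fitted change was -0.22 ± 0.05 (adjusted p = 0.011, edgeR), a call lost without the 0 or 300 nM library (adjusted p up to 0.1125). SETD2 was at 126, 113, 113, 113 and 109 CPM, with 129.9 untreated. Beyond 0 nM it hardly changed, and its fitted change of -0.17 ± 0.05 (adjusted p = 0.0427, edgeR) was -0.06 without the 0 nM library and was lost as a call without any of the 0, 30, 100 and 300 nM libraries. KDM5A, a lysine 4 demethylase, had a fitted change of -0.16 (adjusted p = 0.0332, edgeR) that was lost as a call without any one of the 5 libraries (adjusted p up to 0.281), and CCDC77, which overlaps its exons on the opposite strand, had 46.0% as many counts at 5 h. KDM6A, KMT2C, SETD2 and KDM5A are among the 13 members with long transcripts, whose median deviation from each gene's mean went from 0.07 at 0 nM to -0.06 at 300 nM LDN on the log2 scale, beside 0.04 and -0.03 for all 1525 long genes at 5 h, and the part of this in their slopes was not tested.

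The PRC2 core genes were not called in the dose trend. EZH2 was at 84.7, 85.8, 87.2, 89.4 and 89.9 CPM with rising dose and at 95.0 untreated, with a fitted change of 0.09 ± 0.04 (adjusted p = 0.154, edgeR). EZH1 was at 22.8, 21.3, 20.4, 20.5 and 23.5 CPM and at 23.5 untreated, with a fitted change of 0.02 ± 0.10. CPM climbed at every step of dose in 6 of the 49 genes (CBX2, EZH2, JARID2, KDM2B, KDM4A and PHC1), beside 7.2% of all genes tested, and dropped at every step in 3 (KDM3A, KDM5A and KDM6A), beside 7.41%.

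**Figure D3:**
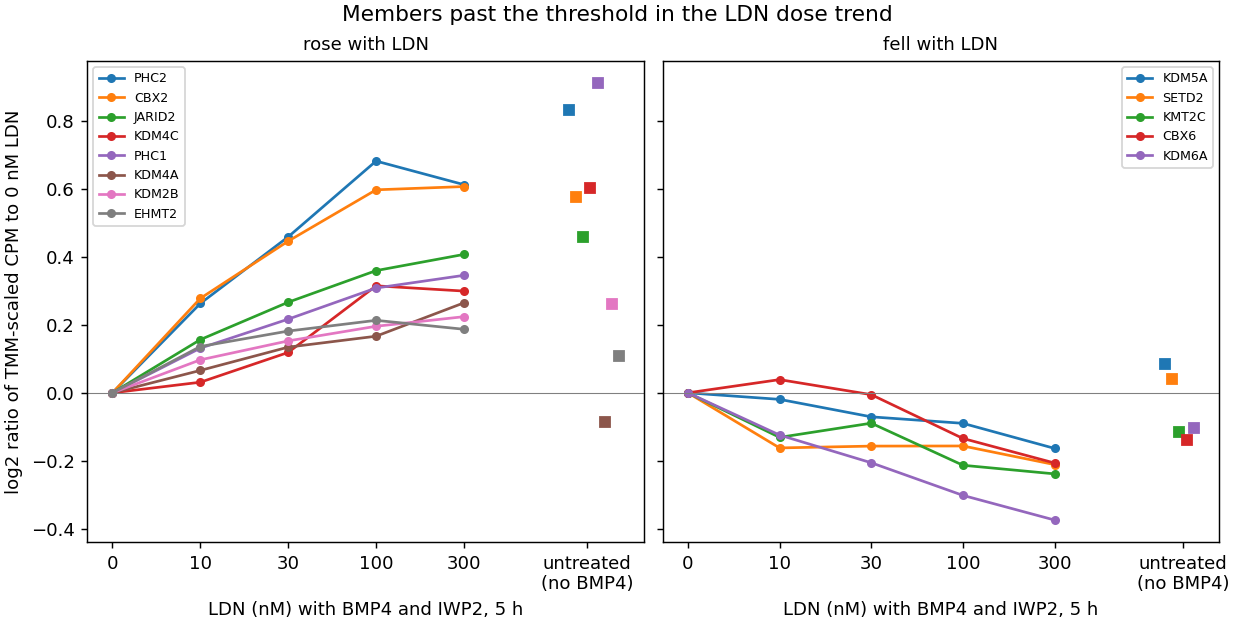
Log2 ratio of TMM-scaled CPM to the 0 nM LDN library for the genes past the threshold in the dose trend, against LDN dose in nM at 5 h (circles joined by lines, 1 library each), with the untreated library as squares on the right. The 8 genes that rose with LDN are in the left panel, where CBX2 and PHC2 climb most and the PHC1 square stands above all its doses, and the 5 that fell are in the right panel, where KDM6A declines at each step.

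Called in both trends were 6 of the 49 genes, beside 9.14% of the 14596 genes tested in both. JARID2, CBX2, PHC1, KDM4A and KDM4C fell over the hours of BMP4 with IWP2 and rose with LDN at 5 h. PHC2 rose in both. Its level at 4 h (9.03 CPM) was below both 0 h libraries, and its increase in the time series came later. At 5 h its level with BMP4 and IWP2 at 0 nM LDN (6.61 CPM) was below the untreated library. The time series and the dose response share no library, and they differ in RNA selection (ribosomal depletion against polyA selection) and in extraction kit.

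**Figure D4:**
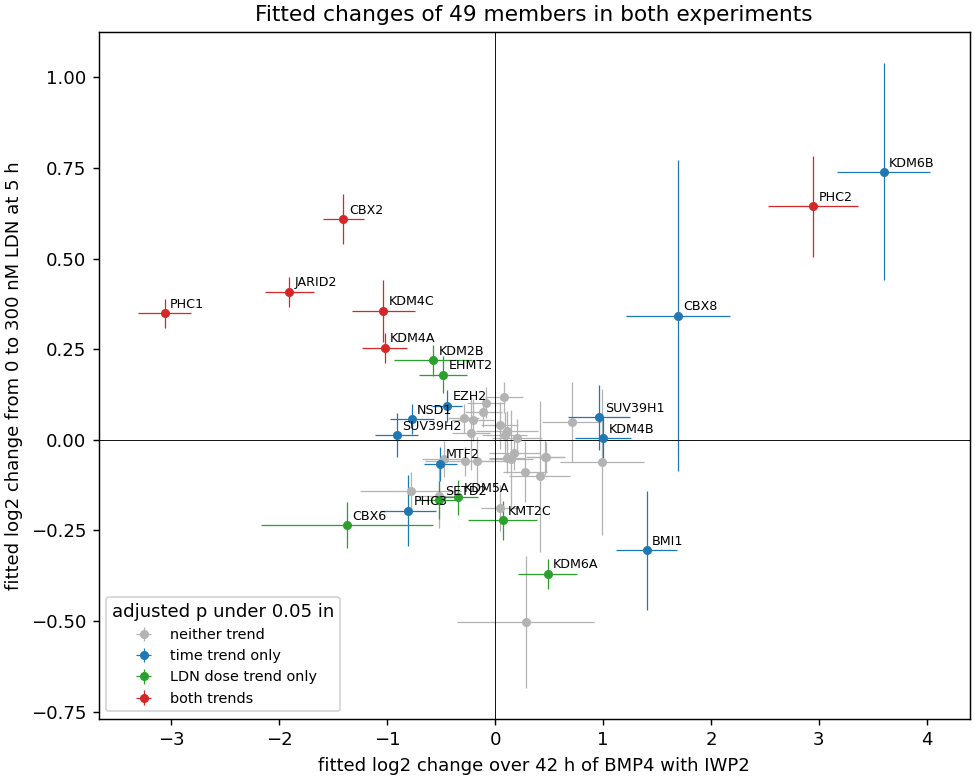
Fitted log2 change over 42 h of BMP4 with IWP2 (x axis) against the fitted log2 change from 0 to 300 nM LDN at 5 h (y axis) for the 49 genes, with bars of 1 SE on each axis and colours for the trends in which the adjusted p was under 0.05. PHC1, JARID2, CBX2, KDM4A and KDM4C are at the upper left, PHC2 is alone among the genes called in both at the upper right, and KDM6A is the lowest of the called genes on the y axis.

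The first hours can be read in both experiments, without a test. The ratios are 4 h over the mean of 0 h, and BMP4 with IWP2 but no LDN at 5 h over the untreated library. The 5 h ratio cannot tell BMP4 from IWP2, since the untreated library lacked both. Of the 49 genes, 31 had the same sign in both, 15 higher and 16 lower, beside 65.8% of all 14596 genes tested in both tables. In only 17 of the 49 was the 4 h change larger than the difference between the 0 h libraries, beside 46.7% of all genes, so most early changes at 4 h were within that difference. PHC1 had log2 ratios of -0.34 at 4 h and -0.91 at 5 h. JARID2 had -0.32 and -0.46. CBX2 had -0.26 and -0.58, and PHC2 had -0.66 and -0.81, so all of these were lower in both readings. The 4 h ratios of PHC1, JARID2 and CBX2 were smaller in size than the log2 differences between their 0 h libraries, which were -0.53, -0.36 and 0.29. CBX7 had the highest early ratio, 1.103 at 4 h, where its 0 h libraries differed by 0.12, and it had 0.21 at 5 h. KDM6A had 0.42 and 0.10, and KDM6B had -0.11 and -0.91.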

How the data were processed

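Total RNA of a time series (7 libraries, ribosomal depletion) and polyA RNA of a 5 h dose response (6 libraries) was sequenced. Per the labels and methods, the authors trimmed reads with Cutadapt, aligned them to GRCh38 with STAR 2.7.8a and quantified genes with RSEM 1.3.3. The annotation release and the strand of counting are not given in the sources used here. The deposited expected counts were rounded to whole numbers for tests, and the deposited FPKM values (scaled by transcript length and depth) were used only to compare levels between genes and in alternatives.

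Genes averaging 1 CPM or more were tested with edgeR 4.0.16 (quasi-likelihood, TMM, Benjamini-Hochberg over all genes tested, threshold 0.05) under R 4.3.3. The time trend is a slope on hours, given as the fitted log2 change over 42 h, the curved fit adds its square, and the LDN trend is a slope on dose step, given as the fitted log2 change from 0 to 300 nM. Dose steps from the labels stand in for measured signaling. The scripts were tested on simulated data. CPM values are TMM-scaled, and log2 ratios of single libraries had 0.25 CPM added. The floor of 3 counts covers counting error only. Groups came from the labels. Gene positions and overlaps are from GENCODE 44, and promoters from RefSeq.

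The 49 genes, the other lists and the tests were chosen with earlier results of these data known. Values in every library were printed for up to 12 genes past the threshold in each trend with the largest fitted changes, up to 4 called only in the curved fit with the largest range, and EZH2 and EZH1. KDM2B was also given because of its dose call. Alternatives were other scalings, filters, tests (DESeq2 1.42.0, limma 3.58.1 on log2 of FPKM with 0.1 added), scales of time and dose, and leaving out each library. Summing the 0 h libraries was added after the data were seen.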

Additional observations from a re-analysis of the deposited data

How the results depend on the processing

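The time trend's count of 16 genes was 8 (without the 42 h library) to 19 (without the second 0 h library) when single libraries were left out, with 9 without the first 0 h library, 9 without the 4 h library and 10 without the 28 h library, and 13 to 22 under the other alternatives. The curved fit's count of 20 was 12 (without the 42 h library) to 25 (without the second 0 h library), and 20 to 25 otherwise. The LDN trend's count of 13 was 8 (without the 0 nM library) to 12, and 11 to 14 otherwise, except that limma on FPKM gave 6 and the untreated library as a sixth step gave 6. PHC1, JARID2, CBX2, PHC2, KDM6B and SUV39H2 were called in the time trend, and PHC1, JARID2 and CBX2 in the LDN trend, under every alternative run. EZH1's LDN slope turned from 0.02 to -0.14 with limma on FPKM and to -0.21 without the 300 nM library, within a range of -0.21 to 0.17 over the libraries left out. SETD2's turned from -0.17 to 0.0057 with the untreated library as a sixth step. KDM6B's 4 h ratio turned from -0.11 to 0.78 on the FPKM scale. The cause was not tested. Depth limits CBX8 and KDM6B at 5 h most. No paired analysis was possible because the groups compared share fewer than 2 replicate numbers, with a single library at every later time and dose.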

Other observations

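A list of 51 further genes of the same complexes, chosen with earlier results of these data known, had 11 genes rising and 9 falling over time and 8 rising and 5 falling with LDN (39.2% and 25.5% of the list, beside 36.7% and 21.3% of all genes tested), in edgeR's quasi-likelihood test, adjusted by Benjamini-Hochberg. Among cofactors of PRC2, EPOP, an elongin-binding subunit, had a fitted change of 2.74 over 42 h (adjusted p = 0.00115), and AEBP2, a DNA-binding subunit, had -1.27 (adjusted p = 0.00515). Among partners of variant PRC1, AUTS2 had -2.50 (adjusted p = 0.000843), BCOR had -1.61 (adjusted p = 0.00342) and its relative BCORL1 had 2.17 (adjusted p = 0.00255). ASXL1, which activates the deubiquitylase BAP1, rose by 1.98 (adjusted p = 0.000402), while BAP1 itself, at 0.45, did not pass (adjusted p = 0.128).

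RCOR1 and RCOR2, the scaffolds that bind the demethylase KDM1A, moved in opposite directions, with fitted changes of 1.27 (adjusted p = 0.000841) and -2.27 (adjusted p = 0.000733). RCOR2 also rose with LDN, by 0.75 (adjusted p = 1.9e-06). KMT5A, the lysine 20 monomethyltransferase of histone H4, rose over time by 2.75 (adjusted p = 0.000507) and had -0.67 with LDN (adjusted p = 0.000387). KDM7A, a demethylase of lysines 9 and 27, rose over time by 2.701 (adjusted p = 0.0122) and had -0.82 with LDN (adjusted p = 0.000239). All p-values here are from edgeR. Genes of the list that were named were chosen after their values were seen.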
